A study of Mus musculus with 6 samples.

Results

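The Smad co-repressor genes Ski, Skil, Tgif1 and Tgif2 were examined in Lbeta T2 cells, a mouse pituitary line of gonadotrope type, after exposure to activin A. The members were named genes, and every probe set that the platform annotation gives to 1 of them alone was used. This gave 7 probe sets of the 45037 on the array that were not controls: 2 for Ski, 2 for Skil, 1 for Tgif1 and 2 for Tgif2. Subconfluent cultures were kept for 16 h in medium free of serum and phenol red. They then received recombinant human activin A at 30 ng/ml or the buffer it was dissolved in, and RNA was taken 1, 2 or 6 h later. Each of the 6 combinations of treatment and time was measured on 1 Affymetrix array, so a difference at a single time has no replicate check. The line is 1 immortalised cell population, and the labels describe no repeated cultures.

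Activin binds a pair of serine/threonine kinase receptors, which phosphorylate Smad2 and Smad3. These join Smad4, enter the nucleus and switch genes on or off. Ski and its relative SnoN, the product of Skil, bind the Smad complex and bring in the NCoR, Sin3 and histone deacetylase machinery that silences its targets. SnoN protein is degraded soon after TGF-beta family signals arrive, while the Skil gene is itself a Smad target in many cell types, a negative feedback loop. Tgif1 and Tgif2 are homeodomain proteins of the TALE class that also bind Smads and recruit histone deacetylases. In gonadotropes, Smad signalling downstream of activin drives the gene of the follicle-stimulating hormone beta subunit.

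The arrays were scaled alike, with a trimmed mean signal of 500 on each and medians between 151 and 166.4. Of 10 gonadotrope markers 9 passed the filter described below, among them the hormone subunit gene Cga, at 11889 to 13900 on the vehicle arrays, whereas Fshb did not pass. Of the markers of other pituitary cells 2 of 7 passed (Pomc and Tshb), and the summed signal of the 6 with a probe set, dim ones included, was 945 to 1075 with activin and 814 to 867 with vehicle. Of the markers of blood, endothelium and fibroblasts 3 of 6 passed (Adgre1, Pecam1 and Cdh5), and the sums over all 6 were 2189 to 2627 and 1990 to 2230. Single markers differed more than the sums: at 1, 2 and 6 h the log2 ratios were 0.41, 0.73 and 1.03 for the endothelial gene Pecam1 and −0.40, −0.46 and −0.38 for the macrophage gene Adgre1 (limma adjusted p = 0.376 and 0.384). At 6 h Lhb stood at 1.09 and Pomc at 0.98, the latter against a vehicle signal of 159.3, near the filter value. Lhx3 had a mean of 0.59. The gonadotrope genes Nr0b1 and Nr5a1 were lower with activin at all 3 times, with means of −0.32 and −0.21. No marker on the array was at 0, and the part of such cells in the results was not tested. The 5′ probe set for 18S ribosomal RNA, a control, gave 12202 on the 1 h activin array and at most 1171 elsewhere. Its part in the 1 h ratios was not tested.

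Levels differed in how well they could be measured. A probe set was tested when its mean log2 signal over the 6 arrays was above 7.28, a signal of 155.2, the midpoint of the ranked probe sets. Of the 7 probe sets 4 passed, both for Ski, 1 for Skil and 1 for Tgif2. The other 3, among them the single probe set of Tgif1, were under 155.2 on all 6 arrays. Signals of different probe sets depend on their probes, so no level of 1 gene is set against that of another.

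**Figure D1:**
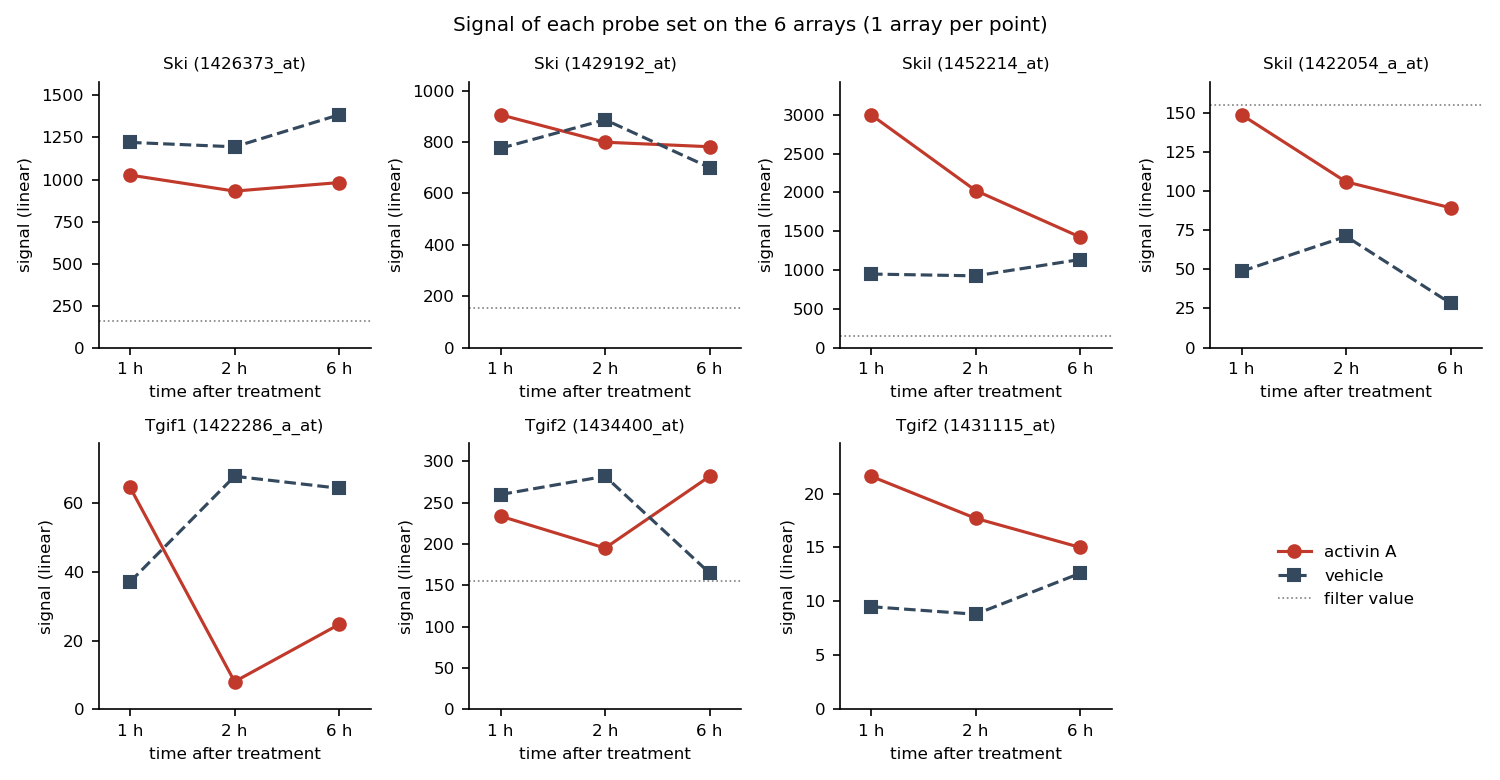
Signal on a linear scale (y) at 1, 2 and 6 h (x, evenly spaced) for each of the 7 probe sets, 1 array per point, with activin A as circles and vehicle as squares; the dotted line is the filter value of 155.2 and each panel has its own scale. The bright Skil probe set reads 2999.3, 2023.3 and 1423.9 with activin, above its 3 vehicle signals, while the first Ski probe set lies below its vehicle signals at all 3 times.

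Among the members with a tested probe set, Skil, which encodes SnoN, had the largest ratio at 1 h and 2 h and the largest mean. At 6 h its log2 ratio of 0.33 was below the 0.78 of Tgif2. The bright Skil probe set, 1452214_at, read 2999.3 at 1 h, 2023.3 at 2 h and 1423.9 at 6 h with activin. With vehicle it read 947.3, 924.3 and 1134.6. All 3 activin signals lay above all 3 vehicle signals, and the 6 h activin signal was the lowest of the activin arrays. The signal was higher with activin by 3.17-fold at 1 h, by 2.19-fold at 2 h and by 1.25-fold at 6 h. Among the 22518 probe sets past the filter, this log2 ratio ranked 24 from the top at 1 h, 97 at 2 h and 2755 at 6 h. Non-overlap in this direction was seen in 6.17% of the probe sets past the filter. RNA came from whole cultures, so a change in every cell and a larger change in some of them cannot be told apart.

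Most of the range of Skil over time was on the activin arrays. From 1 h to 6 h its signal differed 2.11-fold between them, with 1 h the higher, whereas the 3 vehicle signals lay within a 1.23-fold range. The excess over the vehicle array of the same time was, at 2 h, 53.6% of the 1 h excess, and at 6 h 14.1% of it. With the mean of the 3 vehicle arrays as reference, the 6 h log2 ratio was 0.51 in place of 0.33, since the 6 h vehicle array was the highest of the 3. Whether the ratio differed between times was not tested.

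Averaged over the 3 times, the log2 ratio of Skil was 1.04 ± 0.26 (moderated SE, n = 3 pairs of arrays; 95% interval 0.37 to 1.71). It did not pass limma's test with Benjamini-Hochberg adjustment over 22518 probe sets (adjusted p = 0.423, unadjusted p = 0.0102). It ranked 545 by unadjusted p. The test made no call anywhere, with 0% of probe sets called higher and 0% lower. At an unadjusted p under 0.05 there were 2280 probe sets, or 10.1%: 4.84% higher and 5.28% lower. Limma-trend with a robust prior called 20 higher and 1 lower, none of them a member. The additive fit takes the spread of the 3 ratios as error, so a response that declines over time counts against itself. Without the 1 h arrays the mean was 0.73, and without the 6 h arrays it was 1.397.

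The second Skil probe set, 1422054_a_at, was dim. It read 148.9, 106 and 89.4 at 1, 2 and 6 h with activin, and 48.8, 71.1 and 28.3 with vehicle. The activin signals lay above all vehicle signals, with the highest at 1 h. The share of probe sets under the filter that do not overlap in this way was not counted. Every signal was under the filter value, so no fold is given and it was not among the tested probe sets. In the limma fit without the filter, over all 45037 probe sets, it did not pass (adjusted p = 0.803).

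The authors' deposited table of genes past 1.2-fold at all 3 times lists Skil with folds of 2.24, 1.65 and 1.26 at 1, 2 and 6 h. The deposited signals of the probe set with the same source sequence gave 3.17, 2.19 and 1.25, so the direction and the order of the times were the same in both sources. The authors' deposited table of pathway genes at 2 h gives the same 1.65. Beyond Skil, directions were compared for 28 entries of the authors' deposited table matched to 1 probe set, of which 27, 28 and 27 had the same direction as the signals at 1, 2 and 6 h. The fold in the authors' deposited table was the smaller in 18, 21 and 18 of the 28. The sources used here do not state from what values those folds were computed. The folds and the signals belong to the same series, so their shared directions are not independent evidence. Ski, Tgif1 and Tgif2 were not found in the deposited tables, which are partial lists.

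Ski, the founding member of the family and the cellular counterpart of a retroviral oncogene, lay on the other side of 0 by its brighter probe set. Probe set 1426373_at read 1026.5, 931 and 981.9 with activin and 1220.9, 1194.6 and 1385.3 with vehicle at 1, 2 and 6 h. All 3 activin signals were below all 3 vehicle signals, which held for 7.86% of probe sets. The ratio of vehicle over activin was 1.19 at 1 h, 1.28 at 2 h and 1.41 at 6 h. The activin signals spanned a 1.10-fold range and the vehicle signals a 1.16-fold range, with the highest vehicle signal at 6 h. With the mean vehicle array as reference the 6 h log2 ratio was −0.37 in place of −0.50.

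The mean log2 ratio of this Ski probe set was −0.37 ± 0.10 (moderated SE, n = 3 pairs; 95% interval −0.62 to −0.12). It did not pass the limma test (adjusted p = 0.431, unadjusted p = 0.0134). Many probe sets had a lower mean, since this one ranked 913 from the bottom of the 22518. The 5th percentile of the means of all genes past the filter, each by its brightest probe set, was −0.32.

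The other Ski probe set did not share that pattern. Probe set 1429192_at read 906, 799.2 and 781.6 with activin and 775.6, 886.7 and 700.6 with vehicle. The groups overlapped, with log2 ratios of 0.22, −0.15 and 0.16 and a mean of 0.08 ± 0.11 (95% interval −0.22 to 0.37; limma adjusted p = 0.85). Its log2 ratio exceeded that of 1426373_at by 0.47, 0.21 and 0.65 at the 3 times. Of 4990 genes with several probe sets past the filter, the 2 brightest had means of opposite sign in 40.1%, and in 6.35% they differed by more than the 0.45 seen for Ski. The direction for Ski therefore rests on 1 of its 2 probe sets, and the transcripts that each detects were not analysed here.

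**Figure D2:**
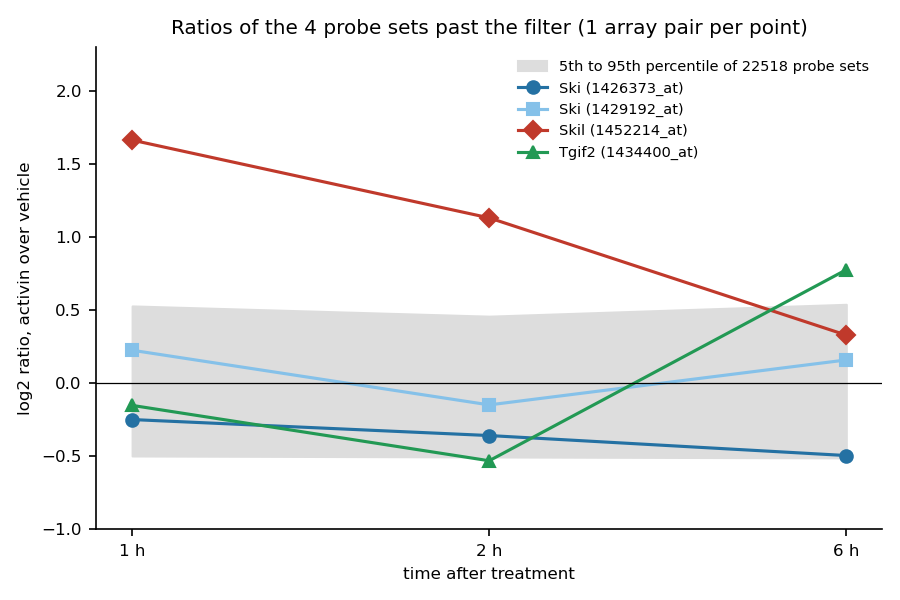
Log2 ratio of activin over vehicle (y) at 1, 2 and 6 h (x, evenly spaced) for the 4 probe sets past the filter, 1 pair of arrays per point; the grey band spans the 5th to 95th percentile of the 22518 probe sets. Skil stands above the band at 1 and 2 h and within it at 6 h, Ski (1426373_at) stays within it, nearest to its lower edge at 6 h, and Tgif2 leaves it below at 2 h and above at 6 h.

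The relatives Skil and Ski thus differed in their log2 ratios, by an amount that depended on the time and on the Ski probe set. The log2 ratio of Skil exceeded that of Ski (1426373_at) by 1.91 at 1 h, 1.49 at 2 h and 0.82 at 6 h, a mean of 1.41 ± 0.55 (SD, n = 3). Against the other Ski probe set the excess was 1.44, 1.28 and 0.17. These differences were not tested. They are relative changes of the genes and say nothing of how much SnoN or Ski protein the cells held.

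Tgif2, a homeodomain co-repressor related to Tgif1, gave no steady difference. Probe set 1434400_at read 233.7, 195 and 281.9 with activin and 259.9, 282 and 164.7 with vehicle at 1, 2 and 6 h. Each activin signal lay within the range of the 3 vehicle signals. The log2 ratios were −0.15, −0.53 and 0.78, so the sign at 6 h was opposite to that at 1 h and 2 h. The 1.71-fold ratio at 6 h was against the lowest of all 6 signals, the vehicle array of 6 h, and it was 0.30 on the log2 scale against the mean vehicle array. The mean over times was 0.03 ± 0.26 (moderated SE, n = 3 pairs; 95% interval −0.64 to 0.70; limma adjusted p = 0.979). An interval this wide does not show that Tgif2 was the same in both treatments.

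The second Tgif2 probe set, 1431115_at, was among the dimmest. It read 21.6, 17.7 and 15 with activin and 9.5, 8.8 and 12.6 with vehicle. The groups did not overlap, but all signals were far under the filter value, and signals of this size are not a measured level. How often dim probe sets show such non-overlap was not counted. In the limma fit without the filter it did not pass (adjusted p = 0.803), and its order of signals was not that of 1434400_at.

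Tgif1, a repressor that binds both Smads and the co-repressor CtBP, could not be assessed. Its single probe set, 1422286_a_at, read 64.7, 8 and 24.7 with activin and 37.1, 67.9 and 64.4 with vehicle. The groups overlapped, and the activin signals spanned 8 to 64.7, more than the vehicle signals did. In the limma fit without the filter it did not pass (adjusted p = 0.835).

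At single times, 1 of the 4 tested probe sets was at least 1.5-fold higher with activin at 1 h (Skil), 1 at 2 h (Skil) and 1 at 6 h (Tgif2). Over all probe sets past the filter the shares were 4.05%, 3.05% and 4.14%. No tested probe set was at least 1.5-fold lower, where the shares over all were 3.22%, 3.42% and 3.58%. Among themselves the vehicle arrays were at least 1.5-fold apart in 4.4% of probe sets between 1 h and 2 h, 5.46% between 1 h and 6 h and 4.93% between 2 h and 6 h. A fold of 1.5 at 1 time is thus reached between arrays of cultures that both received vehicle, and the 6 h ratio of Tgif2 (1.71-fold) equalled the fold between its own vehicle arrays. Skil was at least 1.5-fold higher at both 1 h and 2 h, as were 0.768% of probe sets, and at least 2-fold higher at both, as were 0.129%.

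Time since the start of treatment, whichever the treatment, was tested in the same limma fit. None of the 4 passed (adjusted p = 0.784 for Skil, 0.809 and 0.75 for Ski and 0.931 for Tgif2), and 0% of all probe sets did. At an unadjusted p under 0.05 there were 1866 probe sets, or 8.29%. Skil's fitted log2 level at 6 h was 0.41 below that at 1 h, an average over both treatments in which 6 h was the lower with activin and the higher with vehicle.

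The genes most like a member were sought among 10892 named genes by the root mean square difference of the 3 log2 ratios. For Skil the 5 nearest were Socs3, Smad7, Irf2bp2, Evi5 and Rflnb, at 0.22, 0.27, 0.29, 0.33 and 0.35, and 3 genes came within 0.3. Socs3, a feedback inhibitor of cytokine signalling, stood at 1.52, 0.83 and 0.14 (log2 ratio) at these times. Smad7, the inhibitory Smad of the activin pathway, had 1.22, 1.13 and 0.19. That was by its brightest probe set, with a mean of 0.85, while its other probe set had a mean of 1.74. Irf2bp2, a transcriptional co-repressor gene, had 1.58, 1.11 and 0.81. Evi5, a cell cycle regulator with a Rab GTPase-activating domain, had 1.18, 0.84 and 0.22, and Rflnb, a filamin-binding protein gene, 1.396, 1.431 and 0.78. All 5 were above 0 at all 3 times and lower at 6 h than at 1 h, and none passed the limma test (adjusted p between 0.376 and 0.458). They were picked for ratios near those of Skil, so the shared sign and decline come largely from that choice. The likeness rests on 3 pairs of arrays that all these genes share.

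**Figure D3:**
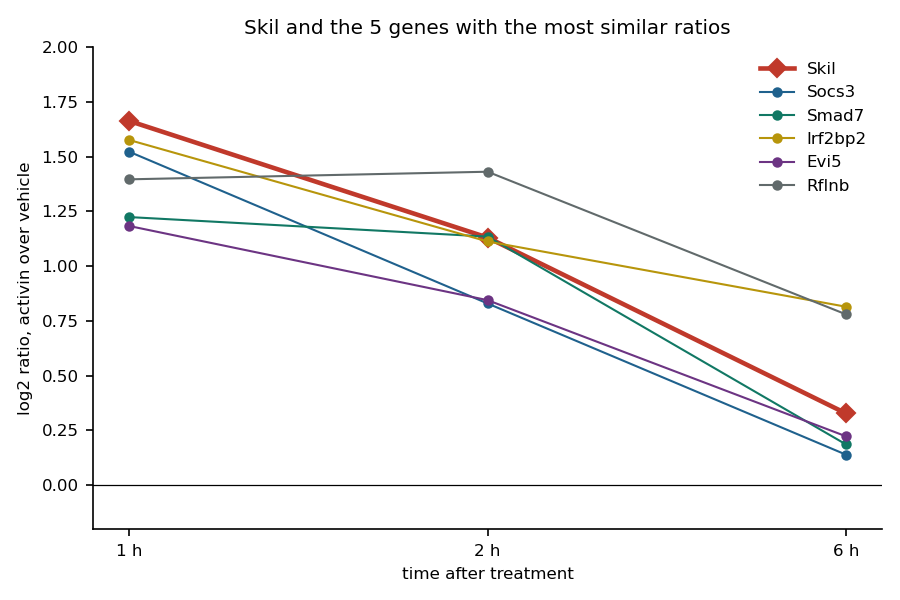
Log2 ratio of activin over vehicle (y) at 1, 2 and 6 h (x, evenly spaced) for Skil and the 5 genes with the smallest root mean square difference from it, 1 pair of arrays per point. All 6 lines lie above 0, and each is lower at 6 h than at 1 h, which comes largely from picking the 5 genes by likeness to Skil.

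For Tgif2 the nearest were Mtss2, Slc4a11, Fank1, Ppm1a and Tmem59l, at 0.07 to 0.13. For Tgif2 169 of the 10892 genes came within 0.3. Ppm1a, a phosphatase that removes the activating phosphates of Smad2 and Smad3, stood at −0.01, −0.47 and 0.87 (log2 ratio at 1, 2 and 6 h). Ski had no ratio of 1.5-fold and was not compared in this way.

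Promoter windows from RefSeq (GRCm38.p6), which run from upstream of a transcription start into the first transcribed bases, were read for Ski and for Irf2bp2, a gene with ratios like those of Skil. Irf2bp2 was picked because, of the 4 such genes with a window here, it was the 1 that held a match; no window is printed for Skil or Smad7. Both are shown so that they can be read for CAGAC, a short motif bound by Smad3 and Smad4. Its matches on either strand are in capitals. The Ski window is chr4:155222486-155222785 and the Irf2bp2 window is chr8:126593937-126594236, both on the minus strand and printed 5′ to 3′.
Ski: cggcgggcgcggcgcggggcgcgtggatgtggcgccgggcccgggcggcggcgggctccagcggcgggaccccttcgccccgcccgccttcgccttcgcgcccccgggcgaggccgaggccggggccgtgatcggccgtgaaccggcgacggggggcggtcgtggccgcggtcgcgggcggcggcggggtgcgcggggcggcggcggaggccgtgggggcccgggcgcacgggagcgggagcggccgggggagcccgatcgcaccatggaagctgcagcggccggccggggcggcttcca
Irf2bp2: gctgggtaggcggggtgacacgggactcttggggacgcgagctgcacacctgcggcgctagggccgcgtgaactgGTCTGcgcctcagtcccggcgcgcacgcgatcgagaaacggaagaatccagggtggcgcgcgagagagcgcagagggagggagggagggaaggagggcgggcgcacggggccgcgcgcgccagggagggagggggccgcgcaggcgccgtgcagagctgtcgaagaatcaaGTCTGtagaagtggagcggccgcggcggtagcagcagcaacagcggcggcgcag
The Ski window held 85.3% G and C and no match, and the Irf2bp2 window held 71.7% and 2 matches. Of 32851 windows of this length, 49.6% held CAGAC on 1 strand or the other, and the median G and C content was 52.7%. The single window of Tgif2 (chr2:156839757-156840056, plus strand), and those of Socs3, Evi5 and Rflnb, held no match, and 3 of the 5 windows of Tgif1 did. The longer palindrome GTCTAGAC, in which no CAGAC fits whole, was in 0.21% of all windows and in none of these. A match is only a string of letters, and the lack of 1 says nothing about whether Smads bind elsewhere.

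Other genes around the co-repressors were taken from lists, each gene by its brightest probe set. Over all 11408 genes, 2.31%, 2.67% and 3.7% were at least 1.5-fold higher with activin at 1, 2 and 6 h and 2.91%, 2.8% and 3.16% lower. The median log2 ratios over all genes were −0.04, −0.03 and −0.02. At an unadjusted p under 0.05, 3.7% of genes were higher and 5.34% lower. No gene of any list passed the limma test adjusted over all probe sets, so the counts below describe these arrays only.

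The other members of the Ski and Dach family were few. Skor1, which encodes a neuronal co-repressor of the family, passed the filter, and its log2 ratios of 0.14, −0.21 and 0.23 gave a mean of 0.05 ± 0.12. Skor2, its closest relative, and Dach1 and Dach2, which encode relatives with a shared protein fold, had no probe set past the filter.

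Among the TALE homeobox genes 11 of 18 passed the filter, Tgif2 included. At least 1.5-fold higher were 0, 0 and 1 at 1, 2 and 6 h, the 1 being Tgif2, and lower 0, 1 and 0, the 1 being Meis1. Their median log2 ratios were −0.15, −0.16 and 0.03. The highest means belonged to Mkx (0.20 ± 0.11) and Pknox2 (0.18 ± 0.16, and −0.0009 by another probe set). The lowest belonged to Meis1 (−0.35 ± 0.20, and −0.18 by another probe set), a partner of Hox proteins, and Irx5 (−0.33 ± 0.09). The log2 ratios of Irx5 were −0.26, −0.42 and −0.32 at 1, 2 and 6 h (limma adjusted p = 0.433).

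The partners through which Ski, SnoN and Tgif proteins repress stood close to 0 by their brightest probe sets. Of 20 listed genes 16 passed the filter and 4 had no probe set of their own in the annotation used. Of the 16, by these probe sets, 0 were at least 1.5-fold higher or lower at any time. Their median log2 ratios were −0.07, 0.05 and −0.01. Some other probe sets stood further from 0. Rbbp4 had a mean of 0.09 by its brightest and 0.70, 0.15 and −0.03 by others. Tbl1x had 0.004 by its brightest and 0.58 and 0.01 by others. Snw1, which encodes the Ski-interacting protein SKIP, had 0.14 ± 0.11 (0.36 by another probe set). Ctbp2, a co-repressor gene, had 0.11 ± 0.10 (−0.03 by another). Sin3a, the scaffold of a histone deacetylase complex, had −0.23 ± 0.095 (−0.09 and −0.065 by others). Prmt5, an arginine methyltransferase gene, had −0.20 ± 0.11. The histone deacetylase genes Hdac1, Hdac2 and Hdac3 had means of −0.03, −0.03 and 0.01.

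The ubiquitin ligases that act on the co-repressors, such as Arkadia (Rnf111) and the Smurfs on SnoN, were all 10 past the filter. None was at least 1.5-fold higher, 1 was lower, at 6 h, and the median log2 ratios were −0.15, −0.02 and −0.16. This was Fbxw7, the substrate-binding subunit of a ligase with TGIF1 among its reported targets in human cells, at 573, 546.1 and 542.9 with activin and 627.7, 715.1 and 817.7 with vehicle. Its mean log2 ratio was −0.37 ± 0.12 (limma adjusted p = 0.459), and its other probe set gave −0.45. Phrf1, a ligase gene that acts on Tgif1 in human cells, had −0.23 ± 0.10. Anapc10 and Smurf2 had the highest means, 0.11 and 0.02, with other probe sets at −0.21 for the former and 0.60 and 0.16 for the latter. Rnf111 itself had −0.16 ± 0.10.

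Coactivators compete with Ski and SnoN for Smads. Of 8 listed genes 7 passed the filter, with 0 at least 1.5-fold higher, 1, 0 and 0 lower, and median log2 ratios of −0.12, −0.06 and 0.01 at 1, 2 and 6 h. Ep300, which encodes the histone acetyltransferase p300, read 1161.6, 1611 and 1689.8 with activin and 1859.6, 1677.3 and 2448 with vehicle, a mean log2 ratio of −0.42 ± 0.15 (limma adjusted p = 0.467). The groups overlapped at the vehicle array of 2 h, which was below the activin array of 6 h. Ncoa3 had −0.19 ± 0.13 and 0.08 by another probe set. Cited2, a p300-binding coactivator gene, had 0.27 ± 0.13 and 0.82 by another, and Kat2b, the acetyltransferase PCAF, had 0.12 ± 0.09, 0.02 and −0.24.

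The Smads, receptors and adaptors carry the signal that the co-repressors oppose. Of 16 listed genes 11 passed, 0 were at least 1.5-fold higher at any time, and 1 was lower, Smad3 at 6 h (−0.61; signal 1863.6 with activin and 2834.5 with vehicle). The median log2 ratios were −0.05, −0.01 and −0.07. Smad2 had a mean log2 ratio of −0.03 and Smad4 0.01. Smad5 had 0.14 ± 0.10 (0.42 and 0.33 by other probe sets) and Zfyve9, the Smad anchor SARA, 0.07 ± 0.10. Pml, whose cytoplasmic form aids Smad signalling, had −0.25 ± 0.09 (limma adjusted p = 0.476), and −0.16 by another probe set.

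The last list held feedback and target genes of activin and TGF-beta, a class to which Skil also belongs. Of 16 listed genes 10 passed the filter. At least 1.5-fold higher were 5, 5 and 3 at 1, 2 and 6 h, 0 were lower, and the median log2 ratios were 0.68, 0.56 and 0.25. The highest were Smad6 (1.15 ± 0.25), an inhibitory Smad, and Spsb1 (1.06 ± 0.17, and 0.53 by another probe set), a ubiquitin ligase adaptor. At an unadjusted p under 0.05, 6 of the 10 were higher (Smad6, Smad7, Klf10, Spsb1, Inhbb and Cdkn2b) and 0 lower, and the smallest adjusted p was 0.376 (limma). Ldlrad4, an inhibitor of Smad activation, had −0.11 ± 0.09 but 1.08 by another probe set, and Tgfb1 had −0.09 ± 0.12 and 0.22. Earlier results of these data were known when this list was drawn up, so its direction is not independent evidence.

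**Figure D4:**
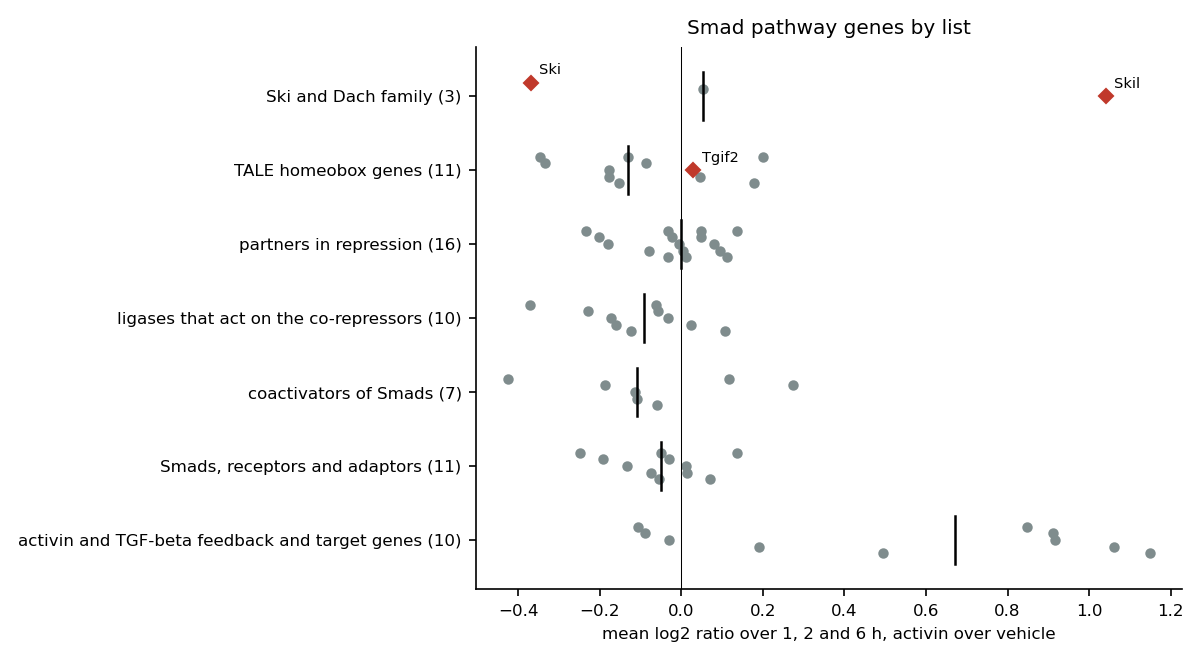
Mean log2 ratio of activin over vehicle across 1, 2 and 6 h (x) for the genes past the filter in 7 lists (y, number of genes in brackets), 1 point per gene by its brightest probe set, scattered vertically for legibility; diamonds are Ski, Skil and Tgif2 and black bars are list medians. Skil at 1.04 lies in the range of the upper feedback and target genes, Ski at −0.37 near the lowest points of the other lists.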

How the data were processed

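The members and lists were chosen with earlier results of these data known. The authors deposited linear intensity values, 1 signal per probe set and array, made with GCOS 1.4 according to the submitters' processing notes, without stated settings. The values show that each array was scaled to a trimmed mean of 500 (2% set aside at each end). The authors also deposited signed fold changes, here treated as a score since lower genes carry a minus sign; per the file headers these tables list genes past a fold threshold.

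Of 45101 probe sets 64 controls were left out. Symbols came from the platform annotation, updated through Entrez identifiers to RefSeq for 34741 probe sets. Log2 was taken of the signals, with pseudocount 0. Probe sets with a mean log2 above the median of 7.28 were fitted with limma 3.58.1 in R 4.3.3 (22518 probe sets, 11408 genes): treatment as the tested term, time as a block, a two-sided test on 2 residual plus 3.02 prior degrees of freedom, Benjamini-Hochberg at 0.05. P-values rest on the spread between 3 pairs of arrays, each of a different time, moderated by a prior drawn from all fitted probe sets. They do not measure the spread between repeated cultures. Precision is limited by the number of pairs. The fit was checked on simulated data. Named genes were all members, the 5 genes nearest to each member with a 1.5-fold ratio (clone names passed over), and the 2 highest and 2 lowest means of each of the 7 pathway lists; other genes and markers named for their role or fold were added after their values were seen. Raw scans were not used here. Figures used matplotlib 3.10.9.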

Additional observations from a re-analysis of the deposited data

How the results depend on the processing

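The labels give no replicate numbers; the main fit paired the arrays of each time through the time block, and without it no probe set was called. Over the 11 alternatives for Skil and for Ski 1426373_at, the direction held and none passed: adjusted p lay between 0.218 and 0.803 for Skil and between 0.207 and 0.803 for Ski. Leaving out the arrays of 1 time gave means of 0.729 to 1.397 for Skil, −0.428 to −0.305 for Ski 1426373_at, 0.004 to 0.191 for Ski 1429192_at and −0.343 to 0.311 for Tgif2, which changed sign without the 6 h arrays (−0.343). Single-time ratios moved by more than the spread of the vehicle arrays in 4 of 60 cases, all with the mean vehicle array as reference: Ski 1426373_at at 6 h −0.365, Ski 1429192_at at 2 h 0.028, Skil at 6 h 0.513 and Tgif2 at 6 h 0.297. Quantile normalization and median centring changed no direction of a tested mean and no call. Tgif2 has no value with a filter at the 70th percentile, under which it falls. With limma-trend and a robust prior, 20 probe sets were called higher and 1 lower, where the main fit called 0; the cause was not tested.

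Counts of probe sets at least 1.5-fold apart depend on which are counted. In the main setting 912, 686 and 932 were higher at 1, 2 and 6 h and 726, 769 and 807 lower. Without a filter 6155, 5092 and 6325 were higher and 4822, 6400 and 5168 lower. With a filter at the 70th percentile the counts were 262, 281 and 316 higher and 204, 115 and 252 lower. At a 2-fold threshold they were 211, 160 and 208 higher and 126, 136 and 158 lower. By the brightest probe set of each gene they were 264, 305 and 422 higher and 332, 319 and 360 lower. Dim signals limit Tgif1 and the second probe sets of Skil and Tgif2, for which detection calls were not used here.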
